A study of Mus musculus with 7 samples.

Results

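Cadherins and protocadherins are cell surface proteins whose extracellular repeats bind calcium and hold neighbouring cells together or pass signals between them. The members described here are the genes of the deposited table with a symbol of *Cdh* or *Pcdh* and a number alone, the clustered protocadherins (*Pcdha*, *Pcdhb* or *Pcdhg*) and the *Fat*, *Dchs* and *Celsr* families, without *Cdh5*. There were 63 such members among the 14732 genes of the table. Of these, 35 belonged to the protocadherin gene clusters (1 *Pcdha*, 12 *Pcdhb* and 22 *Pcdhg* genes) and 28 lay outside them. Of 42 cadherin genes outside the clusters that were considered by name, 14 were not listed in the table and were not analysed here, namely *Cdh1*, which encodes E-cadherin, *Cdh9*, *Cdh12*, *Cdh15*, *Cdh17*, *Cdh18*, *Cdh22*, *Cdh23*, *Cdh26*, *Pcdh8*, *Pcdh15*, *Pcdh20*, *Fat2* and *Celsr3*.

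The study asked how loss of 1 copy of *Gata6* alters the developing outflow tract (OFT), the vessel that leads from the embryonic heart to the great arteries. Poly(A) RNA was sequenced from mouse OFTs at embryonic day (E) 11.5. The control group consisted of 3 pools (replicates 3, 4 and 5) of wild-type embryos, and the *Gata6 STOP/+* group of 4 pools (replicates 1, 3, 4 and 5) of embryos heterozygous for a frameshift in exon 2 of *Gata6*. Each library came from pooled OFTs of several embryos, so a value is an average over embryos. The mutant allele was made with CRISPR-Cas9 in C57BL/6 embryos, and the line descends from 1 selected founder that was crossed back to C57BL/6. A reagent list of the study gives *Mib1* alleles as the background in which this line was made, and whether the sampled embryos carried them is not stated. The sex of the pooled embryos is not given in the sources used here. Libraries held 20930875, 29035529 and 17783655 reads on listed genes in control and 28319373, 27519856, 24736761 and 34467710 in *Gata6 STOP/+*. All values per pool below follow this order, control replicates 3, 4 and 5 and then *Gata6 STOP/+* replicates 1, 3, 4 and 5, and are given in CPM, the reads of a gene scaled to the normalized library size. Group values are mean±s.d. over 3 control and 4 *Gata6 STOP/+* pools.

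*Gata6* itself (ENSMUSG00000005836, GRCm38 chr18:11052064-11085635) was measured at 315, 257 and 286 CPM in the control pools and 268, 203, 219 and 217 CPM in the *Gata6 STOP/+* pools. The lowest control pool, replicate 4, lay below the highest *Gata6 STOP/+* pool, replicate 1, so the groups overlapped, and the other 3 *Gata6 STOP/+* pools lay below every control pool. The means were 286±28.9 CPM for control and 227±28.7 CPM for *Gata6 STOP/+*, and limma gave a log2 fold change of −0.34 (s.e. 0.099, unadjusted *P*-value of 0.00578, adjusted *P*-value of 0.389). EdgeR's likelihood ratio test gave an adjusted *P*-value of 0.154, and 0.0164 with the replicate number as a block (log2 fold change of −0.42). The same block gave adjusted *P*-values of 0.213 with limma and 0.27 with edgeR's quasi-likelihood test. *Gata6 STOP/+* replicate 1 shares its number with no control pool, so under this block it adds nothing to the log2 fold change. A frameshift leaves the gene in place, and the values do not separate RNA of the mutant allele from that of the intact one.

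The tissue label was compared with marker genes. All 9 cardiomyocyte markers, 10 endothelial and endocardial markers, 5 smooth muscle markers, 7 mesenchymal markers, 6 epicardial markers, 8 erythroid markers, 6 macrophage markers and 7 neuronal markers were listed, together with 4 markers of neural crest and Schwann precursors. Among foregut epithelial markers 2 of 10 were listed, *Krt8* and *Krt18*, which other epithelia also express, and among skeletal muscle progenitor markers 0 of 5. The cardiomyocyte markers summed to 17975, 17075 and 16251 CPM in the control pools and 13849, 18567, 17294 and 16973 CPM in the *Gata6 STOP/+* pools, with *Myh7* as the most abundant. Replicate 1 of the *Gata6 STOP/+* pools had the lowest of these sums. The RNA of a whole OFT is a mixture of these cell types, and in such samples fewer cells of a type and less RNA per cell cannot be told apart.

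Classical cadherins bind the same or a similar cadherin on the next cell and are tied to actin inside the cell by catenins. In the heart, N-cadherin is best known for joining cardiomyocytes, though other cell types express it too, and mesenchymal and endothelial cells also carry further members. Protocadherins lack the catenin-binding tail, and the very large Fat, Dachsous and Celsr cadherins are best known for the polarity and growth of cell sheets.

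Across the 63 members, the mean level ranged from *Pcdhb4* at 1.075 CPM to *Cdh2* at 453 CPM. The mean was at least 100 CPM for 8 members, from 10 to below 100 CPM for 19 and below 10 CPM for 36. Together the members took up 2430, 2466 and 2408 CPM in the control pools and 2658, 2196, 2379.8 and 2536 CPM in the *Gata6 STOP/+* pools. Replicate 3 of *Gata6 STOP/+* had the lowest of these sums and replicate 1 the highest, with all 3 control pools between them. The 5 members with the highest CPM (*Cdh2*, *Fat1*, *Cdh11*, *Cdh3* and *Dchs1*) accounted for 58.6% of the summed mean. Per kilobase of exon, which allows levels to be compared between genes, the order was *Cdh2* (56.2 CPM per kilobase), *Cdh3* (43.2), *Pcdhgc3* (31.8), *Cdh11* (30.3), *Fat1* (21.6), *Dchs1* (16.1), *Pcdh18* (14.6), *Pcdh7* (9.63), *Cdh24* (8.45), *Fat4* (7.35), *Pcdhgc4* (5.33) and *Pcdh1* (5.10). The remaining members lay below 5 CPM per kilobase.

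**Figure D1:**
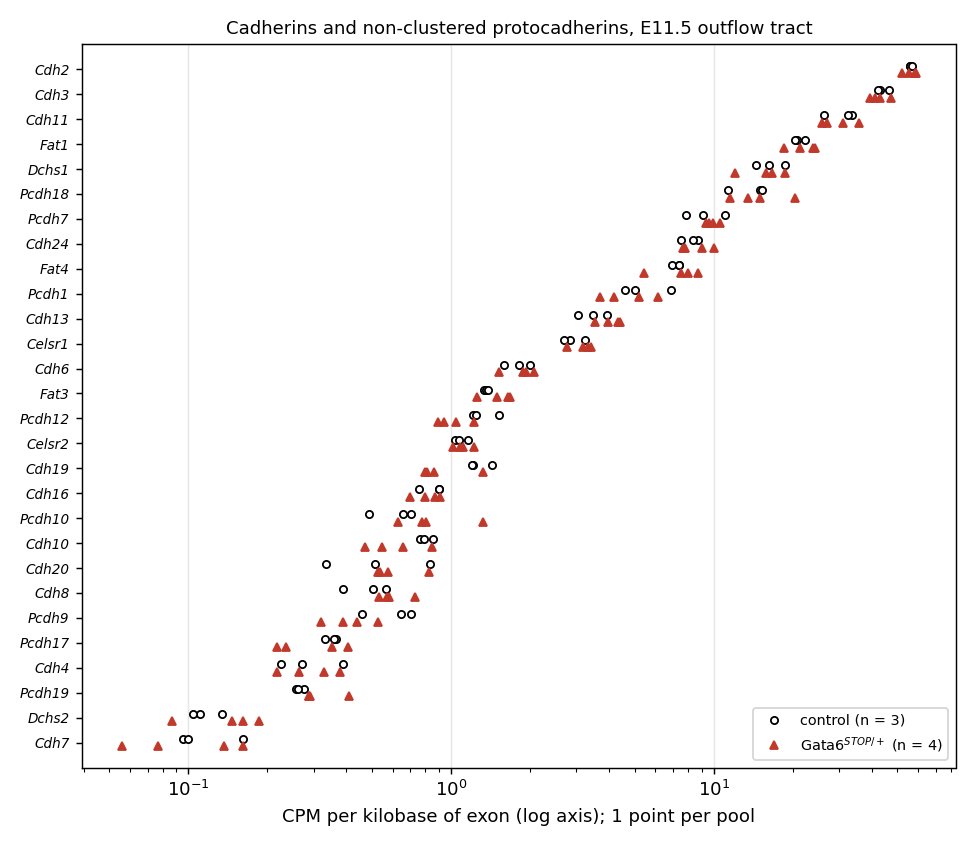
CPM per kilobase of exon in each pool for the 28 members outside the gene clusters, on a log axis, with open circles for the 3 control pools and red triangles for the 4 *Gata6 STOP/+* pools. The points of both groups interleave for nearly all genes, from *Cdh2* at a mean of 56.2 CPM per kilobase down to *Cdh7* at 0.113, and only *Pcdh19* has every *Gata6 STOP/+* pool to the right of every control pool.

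The highest and lowest values of the members were spread unevenly over the pools. Replicate 1 of *Gata6 STOP/+* held the highest value of all 7 pools for 21 of the 63 members (33.3%), although it held the highest value for 19.3% of all genes. Replicate 3 of *Gata6 STOP/+* held the lowest value for 18 members (28.6%), beside 15.2% of all genes. Control replicate 5 also departed, with the lowest value for 14 members (22.2%, beside 13.1% of all genes) and the highest for 2 (3.17%, beside 13.5%). *Gata6 STOP/+* replicates 1 and 3 belong to the same genotype, and they lay on opposite sides of all control pools for *Fat1*, *Fat3*, *Fat4* and *Dchs1*. This was not particular to that family, since *Cdh3*, *Pcdh17*, *Pcdhb17* and *Pcdhga11*, among others, showed it too. The share of all genes with this pattern was not determined. Their cardiomyocyte marker sums were 13849 CPM in replicate 1, the lowest of all pools, and 18567 CPM in replicate 3, the highest. The erythroid markers summed to 2644, 2273 and 5510 CPM in the control pools and 2582, 3787, 4098 and 6962 CPM in the *Gata6 STOP/+* pools, control replicate 5 being far above the other control pools. Control replicate 4 had *Nppa* at 174 CPM, beside 3.26 to 32.1 CPM in the other pools, and *Npr3* at 100 CPM, beside 34.2 to 46.75 CPM. Whether the makeup of the pools contributed to the member levels was not tested. Of all 63 log2 fold changes, 34 were above 0 with every pool included, 28 when *Gata6 STOP/+* replicate 1 was omitted, 40 on omission of *Gata6 STOP/+* replicate 3 and 33 on omission of control replicate 5, and 0 members passed the test in each case.

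No member passed the test for a difference between genotypes. With limma, 0 of the 63 members had an adjusted *P*-value under 0.05, and the share over all 14732 genes was 0% as well. The lowest adjusted *P*-value of a member was 0.473. EdgeR's quasi-likelihood test on reads recovered from the CPM also called 0 genes (0%), its likelihood ratio test called 105 genes (0.713%) and DESeq2 called 88 (0.597%), with 0 members among them in each case. At an unadjusted *P*-value under 0.05, limma gave 1 member higher in *Gata6 STOP/+*, where the share over all genes was 4.17%, and 5 members lower, where that share was 3.88%. As shares of the members these are 1.59% and 7.94%. For each of these 6 members, leaving out at least 1 pool raised the unadjusted *P*-value above 0.05. The balance of higher and lower members depended on single pools, with 4 members higher and 1 lower without *Gata6 STOP/+* replicate 3 (4.69% and 4.16% of all genes) and 3 higher and 1 lower without control replicate 4 (4.49% and 4.32% of all genes). The groups did not overlap for 3 members with every *Gata6 STOP/+* pool higher (4.31% of all genes) and for 2 with every *Gata6 STOP/+* pool lower (4.16% of all genes). These 5 members are 7.94% of the 63, close to the sum of the shares over all genes. The log2 fold change was above 0 for 34 members and below 0 for 29, with a median of 0.014, beside −0.001 over all genes.

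The log2 fold change stayed within 0.25 in either direction for 48 of the 63 members, and for 35 members the 95% interval lay between −0.5 and 0.5. The median size of the log2 fold change was 0.131 for the members and 0.081 for all genes. The median coefficient of variation between pools of a group was 15.8% for the members (16.9% for the clustered ones and 14.8% for the others) and 8.99% over all genes, which were not matched for level, and this difference was not tested. Many members are low, and 1 read was worth 0.0291 to 0.056 CPM in these libraries.

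**Figure D2:**
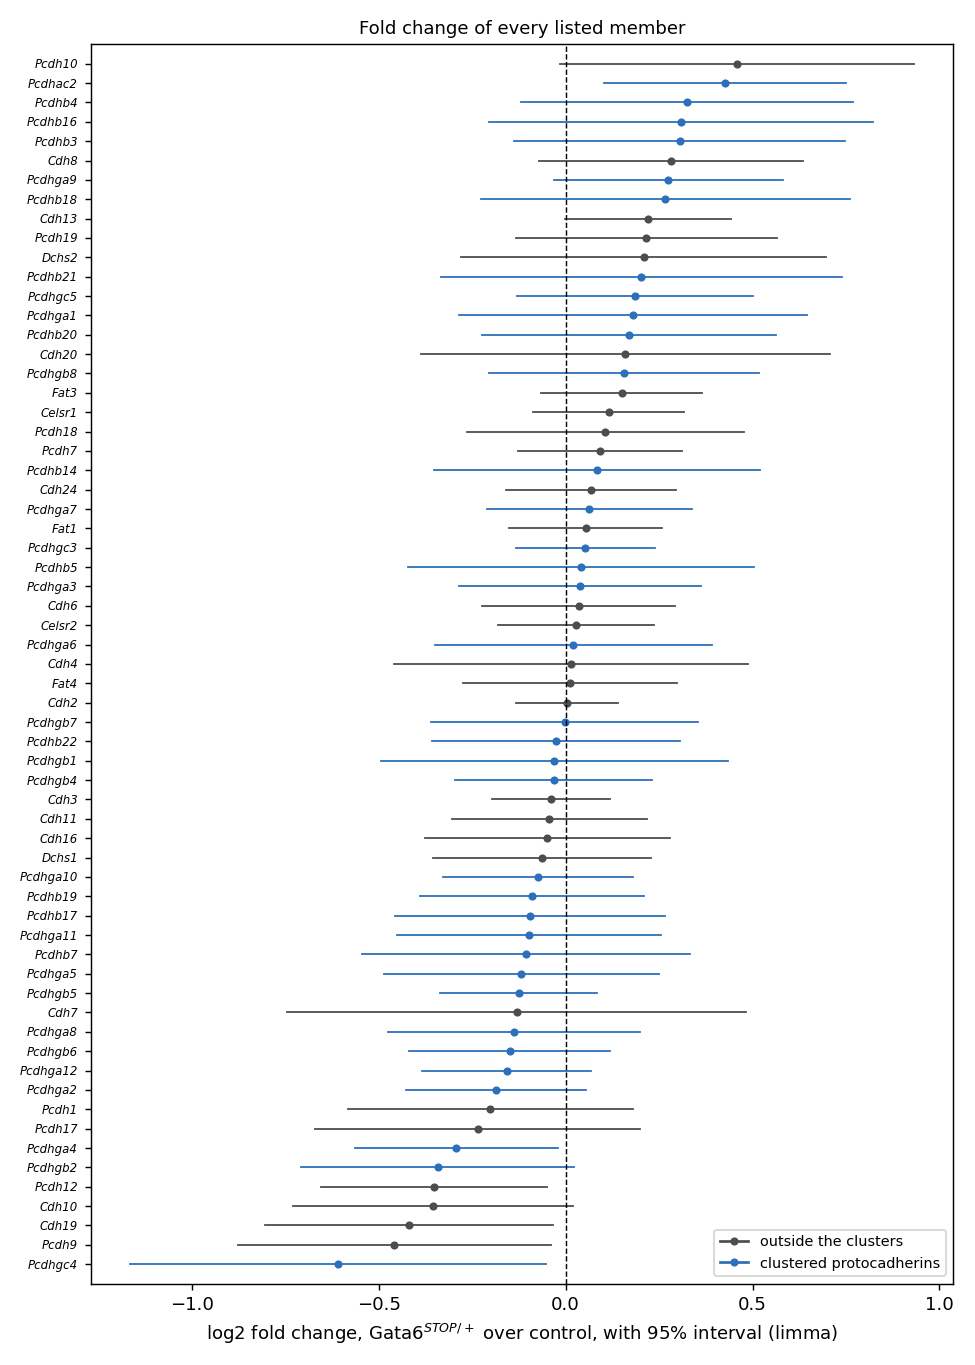
Log2 fold change (*Gata6 STOP/+* over control) of each of the 63 members with its 95% interval from limma, sorted by size, with clustered protocadherins in blue and the others in grey. Values run from −0.61 for *Pcdhgc4* to 0.46 for *Pcdh10*, and the intervals of 6 members leave out 0 before adjustment for the number of genes.

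Among type I classical cadherins, 3 of 5 were listed. *Cdh2* (ENSMUSG00000024304), which encodes N-cadherin, a cadherin of cardiomyocyte junctions, was measured at 451, 449.8 and 457 CPM in the control pools and 422, 471, 449 and 475 CPM in the *Gata6 STOP/+* pools. Control pools lay close together and within the range of the *Gata6 STOP/+* pools. The means were 453±4.18 CPM for control and 454±24.5 CPM for *Gata6 STOP/+*, giving a log2 fold change of 0.003 (s.e. 0.062, unadjusted *P*-value of 0.962, adjusted *P*-value of 0.993), and the 95% interval of the log2 fold change was −0.13 to 0.14. *Cdh2* lies on the same chromosome as *Gata6*, 5.50 Mb away from it at chr18:16588877-16809246. *Cdh3*, which encodes P-cadherin, was measured at 188, 185 and 203 CPM in the control pools and 208, 173, 180.1 and 188 CPM in the *Gata6 STOP/+* pools. The highest and the lowest value both came from *Gata6 STOP/+* pools, replicates 1 and 3, and the log2 fold change was −0.038 (s.e. 0.071, unadjusted *P*-value of 0.603, adjusted *P*-value of 0.919). *Cdh4*, which encodes R-cadherin, had far fewer reads and ranged from 1.59 to 2.83 CPM.

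Type II classical cadherins are typical of mesenchymal and neural cells, and 8 of 12 were listed. The most abundant, *Cdh11*, a cadherin of mesenchyme, was measured at 234, 300.3 and 288 CPM in the control pools and 319, 242, 229.6 and 277 CPM in the *Gata6 STOP/+* pools. Replicate 1 of the *Gata6 STOP/+* pools was the highest, replicate 4 of *Gata6 STOP/+* and replicate 3 of control were the lowest, and the groups overlapped. The log2 fold change of *Cdh11* was −0.044 (s.e. 0.118, unadjusted *P*-value of 0.719, adjusted *P*-value of 0.948). Beside it, the mesenchymal marker list, 7 of 7 listed with *Tbx20* as the most abundant, summed to 2199.9, 1666 and 2031 CPM in the control pools. In the *Gata6 STOP/+* pools it summed to 1841, 1499.8, 1692 and 1727 CPM. Of these markers 5 had a log2 fold change below 0 and 2 above. Limma gave −0.50 for *Pdgfra* (unadjusted *P*-value of 0.00427) and −0.47 for *Postn* (unadjusted *P*-value of 0.00957). Lower genes with such a *P*-value under 0.05 were 3.88% of all genes. The part of this list in the *Cdh11* level was not tested. *Cdh24* was measured at 30.4, 29.2 and 26.2 CPM in the control pools and 31.5, 27.2, 35.1 and 26.7 CPM in the *Gata6 STOP/+* pools, with replicate 4 of *Gata6 STOP/+* highest and both groups overlapping. It had a log2 fold change of 0.068 (s.e. 0.103, unadjusted *P*-value of 0.523, adjusted *P*-value of 0.899).

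*Cdh19* (ENSMUSG00000047216, chr1:110888326-110977584), a type II cadherin known from Schwann cell precursors, was measured at 6.14, 5.21 and 5.15 CPM in the control pools and 5.65, 3.48, 3.42 and 3.69 CPM in the *Gata6 STOP/+* pools. Replicates 3, 4 and 5 of *Gata6 STOP/+* were lower than every control pool, whereas replicate 1 lay within the control range. The means were 5.50±0.553 CPM for control and 4.06±1.07 CPM for *Gata6 STOP/+*, and limma gave a log2 fold change of −0.42 (s.e. 0.174, unadjusted *P*-value of 0.0355, adjusted *P*-value of 0.579). Leaving out each pool in turn gave log2 fold changes of −0.57 to −0.34, so the direction held in each case. The 4 listed markers of neural crest and Schwann precursors, with *Erbb3* as the most abundant, summed to 114, 81.2 and 89.1 CPM in the control pools and 80.01, 68.5, 75.5 and 70.1 CPM in the *Gata6 STOP/+* pools. These sums were lower in all 4 *Gata6 STOP/+* pools than in every control pool, with *Gata6 STOP/+* replicate 1 closest to the control range. Their part in the *Cdh19* difference was not tested.

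*Cdh10*, another type II cadherin, was measured at 7.67, 7.97 and 8.57 CPM in the control pools and 8.49, 4.75, 6.63 and 5.50 CPM in the *Gata6 STOP/+* pools. The 3 control pools were close to each other, *Gata6 STOP/+* replicate 1 was level with them and the other 3 *Gata6 STOP/+* pools were lower. As for *Cdh19*, *Gata6 STOP/+* replicate 1 thus stood with the control pools, and the comparison gave a log2 fold change of −0.35 (s.e. 0.17, unadjusted *P*-value of 0.0619, adjusted *P*-value of 0.647). Of the remaining type II cadherins, *Cdh6* ranged over the 7 pools from 13.8 to 18.7 CPM, *Cdh8* from 3.002 to 5.64 CPM, *Cdh20* from 1.34 to 3.35 CPM and *Cdh7* from 0.561 to 1.63 CPM. None of the 4 had an unadjusted *P*-value under 0.05. Among the cadherins without the classical tail, 2 of 5 were listed. *Cdh13*, which encodes T-cadherin, a cadherin held in the membrane by a lipid anchor, ranged from 34.2 to 49.5 CPM, and *Cdh16*, known from kidney epithelium, from 2.65 to 3.46 CPM.

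Of the non-clustered protocadherins, 3 members belong to the delta-1 type, and 4 of 5 of the delta-2 type were listed. A further delta-1 gene in the table, *Pcdh11x*, falls outside the name rule by its final letter and ranged from 5.72 to 11.1 CPM, with overlapping groups. *Pcdh7*, the most abundant of the 3, was measured at 82.95, 117 and 96.9 CPM in the control pools and 112, 99.4, 102 and 105 CPM in the *Gata6 STOP/+* pools. The lowest and the highest value were both control pools, and the *Gata6 STOP/+* pools lay between them, with a log2 fold change of 0.093 (s.e. 0.099, unadjusted *P*-value of 0.372, adjusted *P*-value of 0.846). *Pcdh1* was measured at 60.6, 40.6 and 44.1 CPM in the control pools and 45.6, 32.5, 54.02 and 36.6 CPM in the *Gata6 STOP/+* pools, again with overlap, since control replicate 3 and *Gata6 STOP/+* replicate 4 were the 2 highest. It had a log2 fold change of −0.2 (s.e. 0.173, unadjusted *P*-value of 0.269, adjusted *P*-value of 0.807), and the log2 fold change was −0.0305 when control replicate 3 was omitted and −0.0871 on omission of *Gata6 STOP/+* replicate 3.

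*Pcdh9* (ENSMUSG00000055421, chr14:93013410-93890679), the remaining delta-1 member, was measured at 3.12, 4.80 and 4.37 CPM in the control pools and 3.58, 2.17, 2.64 and 2.97 CPM in the *Gata6 STOP/+* pools, from 60 to 139 reads per pool. Control replicates 4 and 5 were the highest, control replicate 3 lay within the *Gata6 STOP/+* range, and the groups therefore overlapped. The means were 4.09±0.873 CPM for control and 2.84±0.590 CPM for *Gata6 STOP/+*, and the test gave a log2 fold change of −0.46 (s.e. 0.189, unadjusted *P*-value of 0.0347, adjusted *P*-value of 0.577). Its log2 fold change was −0.62 to −0.35 when each pool was left out in turn.

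Delta-2 protocadherins bind a complex that regulates actin and act in the movement and sorting of cells. *Pcdh18*, the most abundant of them, was measured at 60.8, 80.4 and 82.2 CPM in the control pools and 109.6, 61.95, 72.8 and 80.5 CPM in the *Gata6 STOP/+* pools. Replicate 1 of *Gata6 STOP/+* was above all other pools, and the rest of both groups shared 1 range. The log2 fold change was 0.11 (s.e. 0.168, unadjusted *P*-value of 0.541, adjusted *P*-value of 0.903). *Pcdh10* was measured at 7.77, 11.2 and 10.4 CPM in the control pools and 21.1, 9.999, 12.7 and 12.3 CPM in the *Gata6 STOP/+* pools. Replicate 1 of *Gata6 STOP/+* was again the highest by a wide margin, and replicate 3 of *Gata6 STOP/+* lay below 2 of the control pools. Its log2 fold change of 0.46 (s.e. 0.215, unadjusted *P*-value of 0.0565, adjusted *P*-value of 0.632) was the highest of all members, and without *Gata6 STOP/+* replicate 1 it was 0.25.

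*Pcdh19*, an X-linked delta-2 gene, was measured at 2.69, 2.90 and 2.74 CPM in the control pools and 4.28, 3.01, 3.01 and 3.05 CPM in the *Gata6 STOP/+* pools. Every *Gata6 STOP/+* pool was higher than every control pool, but 3 of the 4 lay close to the control range and replicate 1 stood well above them. The test gave a log2 fold change of 0.22 (s.e. 0.159, unadjusted *P*-value of 0.202, adjusted *P*-value of 0.783), and without *Gata6 STOP/+* replicate 1 the log2 fold change was 0.11. *Pcdh17* ranged from 2.83 to 5.26 CPM, with replicates 3 and 4 of *Gata6 STOP/+* as the lowest pools.

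*Pcdh12* (ENSMUSG00000024440, chr18:38267089-38284402), which encodes a protocadherin of endothelial cells, was the only listed gene of its subgroup of 3. It was measured at 7.38, 9.25 and 7.56 CPM in the control pools and 5.40, 5.72, 6.35 and 7.41 CPM in the *Gata6 STOP/+* pools, from 135 to 268 reads per pool. Replicates 1, 3 and 4 of *Gata6 STOP/+* were lower than every control pool, and replicate 5 lay just above the lowest control pool. The means were 8.06±1.03 CPM for control and 6.22±0.886 CPM for *Gata6 STOP/+*, with a log2 fold change of −0.35 (s.e. 0.136, unadjusted *P*-value of 0.0259, adjusted *P*-value of 0.541). Leaving out each pool in turn gave log2 fold changes of −0.43 to −0.26. The endothelial and endocardial markers, 10 of 10 listed with *Tek* as the most abundant, summed to 953, 1153 and 846 CPM in the control pools and 1087, 934, 1146 and 1016 CPM in the *Gata6 STOP/+* pools. Of these markers 8 had a log2 fold change above 0, and 2 of the 8 (*Flt1* and *Erg*) an unadjusted *P*-value under 0.05, beside 4.17% of all genes. The other 2, *Emcn* and *Npr3*, had log2 fold changes of −0.55 and −0.48, in the direction of *Pcdh12*. With each pool left out in turn, these ran from −0.888 to −0.154 for *Emcn* and from −0.725 to −0.062 for *Npr3*. Like *Pcdh12*, both were highest in control replicate 4, as were *Kdr* and *Cdh5*, whose log2 fold changes were above 0. The marker sums of both groups overlapped, and their part in the *Pcdh12* values was not tested. *Cdh5*, which encodes VE-cadherin and lies outside the name rule, was measured at 162, 212 and 149 CPM in the control pools and 181, 168, 196 and 171 CPM in the *Gata6 STOP/+* pools. The groups overlapped, and its log2 fold change was 0.048 (s.e. 0.108, unadjusted *P*-value of 0.666, adjusted *P*-value of 0.937).

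Fat and Dachsous cadherins bind each other across cell borders, Fat4 with Dchs1 above all, and are linked to planar polarity and to the Hippo pathway of growth control. Of this group 5 of 6 genes were listed, and together they reached 703, 661 and 637 CPM in the control pools and 776, 545, 672 and 734 CPM in the *Gata6 STOP/+* pools. Replicate 3 of *Gata6 STOP/+* was the lowest pool and replicate 1 the highest. *Fat1* was measured at 348, 324 and 319 CPM in the control pools and 382, 289, 334 and 375 CPM in the *Gata6 STOP/+* pools, with the 3 control pools inside the *Gata6 STOP/+* range. Limma gave a log2 fold change of 0.054 (s.e. 0.093, unadjusted *P*-value of 0.573, adjusted *P*-value of 0.911).

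*Dchs1* was measured at 206, 179 and 160.1 CPM in the control pools and 208, 134, 175 and 184 CPM in the *Gata6 STOP/+* pools. Replicate 3 of *Gata6 STOP/+* was lower than all other pools, and control replicate 3 and *Gata6 STOP/+* replicate 1 were alike at the top. The log2 fold change was −0.063 (s.e. 0.132, unadjusted *P*-value of 0.644, adjusted *P*-value of 0.931). *Fat4* was measured at 119, 127 and 127 CPM in the control pools and 149.8, 93.5, 129 and 137 CPM in the *Gata6 STOP/+* pools. As for *Dchs1*, replicate 3 of *Gata6 STOP/+* was the lowest and replicate 1 of *Gata6 STOP/+* the highest, and the 3 control values of *Fat4* differed little. Its log2 fold change was 0.012 (s.e. 0.13, unadjusted *P*-value of 0.93, adjusted *P*-value of 0.986). The spread of *Fat4* was thus larger among *Gata6 STOP/+* pools (s.d. 24.1 CPM, n=4) than among control pools (s.d. 4.41 CPM, n=3), a difference that was not tested. *Fat3* ranged from 27.03 to 36.05 CPM and *Dchs2* from 0.936 to 2.01 CPM. The 2 listed of 3 Celsr cadherins, which belong to the core of planar cell polarity, ranged from 29.6 to 37.5 CPM for *Celsr1* and from 11.8 to 14.1 CPM for *Celsr2*.

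The clustered protocadherins lie in a row on the plus strand of chromosome 18 in GRCm38. *Pcdhac2*, the only listed *Pcdha* gene, spans chr18:37143503-37187657, the 12 *Pcdhb* genes fall between 37300799 and 37524479, and the 22 *Pcdhg* genes between 37661793 and 37841873. Just beyond them on the same chromosome follow *Pcdh1* (chr18:38185914-38212053) and *Pcdh12*. With *Cdh2*, this puts 38 of the 63 members (60.3%) on chromosome 18, which carries 2.76% of the annotated genes of the table. The log2 fold changes of the 38 had a median of −0.014, and those of the other 25 a median of 0.036.

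In the *Pcdha* and *Pcdhg* clusters each gene has a first exon of its own, with its own promoter, that is spliced to constant exons shared by the whole cluster, whereas *Pcdhb* genes consist mainly of 1 exon. Choice among these promoters gives single cells, neurons above all, different sets of surface proteins. The listed *Pcdhg* genes share between 31.5% and 66.8% of their annotated exon bases with other genes on the same strand, and *Pcdhac2* shares 48.6%. Reads in these shared exons match several genes and can be divided among them only by estimation, so the level of an individual *Pcdha* or *Pcdhg* gene is less certain than the sum of its cluster.

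Summed over its 22 genes, the *Pcdhg* cluster reached 433, 413 and 388 CPM in the control pools and 425, 362, 391 and 407 CPM in the *Gata6 STOP/+* pools. Replicate 3 of *Gata6 STOP/+* was the lowest, control replicate 3 the highest, and the groups overlapped. The means were 412±22.6 CPM for control and 396±26.7 CPM for *Gata6 STOP/+*. The *Pcdhb* cluster summed to 24.1, 28.6 and 26.99 CPM in the control pools and 32.1, 25.6, 27.7 and 26.6 CPM in the *Gata6 STOP/+* pools, with means of 26.6±2.30 CPM for control and 28.03±2.84 CPM for *Gata6 STOP/+* and replicate 1 of *Gata6 STOP/+* above the other pools. All 35 clustered genes together had means of 442±22.1 CPM for control and 430.4±29.2 CPM for *Gata6 STOP/+*. These sums were not tested, and the median log2 fold change was 0.13 for the *Pcdhb* genes (8 above 0 and 4 below) and −0.053 for the *Pcdhg* genes (8 above 0 and 14 below).

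**Figure D3:**
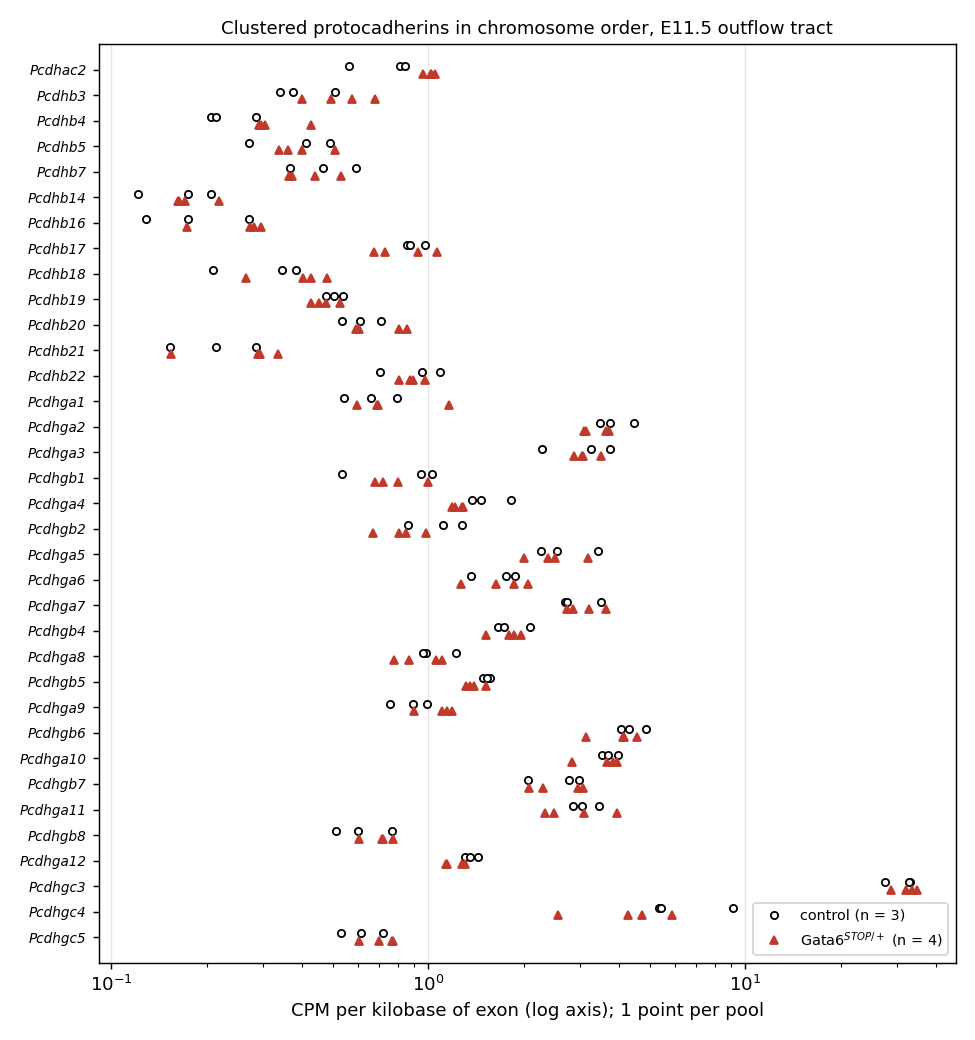
CPM per kilobase of exon in each pool for the 35 clustered protocadherins in chromosome order, on a log axis, with open circles for the 3 control pools and red triangles for the 4 *Gata6 STOP/+* pools. The means of *Pcdhb* genes lie between 0.174 and 0.901 CPM per kilobase, most *Pcdhg* genes are higher, and *Pcdhgc3* exceeds all others in every pool, with a mean of 31.8.

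*Pcdhgc3*, a C-type gene at the end of the *Pcdhg* cluster, was measured at 182, 181 and 152 CPM in the control pools and 191, 158, 177 and 185 CPM in the *Gata6 STOP/+* pools. It took 39.0% to 45.5% of the *Pcdhg* sum in each pool, a mean of 41.6% in control and 44.8% in *Gata6 STOP/+*. Control replicate 5 was the lowest pool, and the groups overlapped, with a log2 fold change of 0.052 (s.e. 0.084, unadjusted *P*-value of 0.548, adjusted *P*-value of 0.905). The neighbouring C-type gene *Pcdhgc4* (ENSMUSG00000023036, chr18:37815079-37841873) was measured at 29.9, 30.4 and 51.02 CPM in the control pools and 14.4, 32.9, 26.4 and 23.8 CPM in the *Gata6 STOP/+* pools. Control replicate 5 was far above all other pools and *Gata6 STOP/+* replicate 1 far below them, whereas *Gata6 STOP/+* replicate 3 exceeded control replicates 3 and 4. The means were 37.1±12.1 CPM for control and 24.4±7.67 CPM for *Gata6 STOP/+*, with a log2 fold change of −0.61 (s.e. 0.252, unadjusted *P*-value of 0.0349, adjusted *P*-value of 0.578). This was the lowest log2 fold change of all members. Its share of the *Pcdhg* sum ran from 3.38% in *Gata6 STOP/+* replicate 1 to 13.1% in control replicate 5. The log2 fold change of *Pcdhgc4* was −0.36 when control replicate 5 was omitted and −0.38 on omission of *Gata6 STOP/+* replicate 1.

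*Pcdhac2* (ENSMUSG00000102697), a C-type gene of the *Pcdha* cluster, was measured at 4.79, 4.97 and 3.30 CPM in the control pools and 5.998, 5.65, 5.98 and 6.16 CPM in the *Gata6 STOP/+* pools, from 59 to 212 reads per pool. Every *Gata6 STOP/+* pool was higher than every control pool, and the *Gata6 STOP/+* pools lay close together while control replicate 5 was lower than the other control pools. The means were 4.36±0.915 CPM for control and 5.95±0.215 CPM for *Gata6 STOP/+*. Limma gave a log2 fold change of 0.43 (s.e. 0.147, unadjusted *P*-value of 0.0144, adjusted *P*-value of 0.473). No other member had a lower unadjusted *P*-value, and the log2 fold change stayed between 0.26 and 0.52 when each pool was left out in turn, the lowest of these being the one with control replicate 5 omitted (unadjusted *P*-value of 0.0687).

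*Pcdhga4* was measured at 6.47, 8.59 and 6.94 CPM in the control pools and 6.03, 5.62, 6.06 and 5.73 CPM in the *Gata6 STOP/+* pools. Every *Gata6 STOP/+* pool was lower than every control pool, with control replicate 4 the highest, and limma gave a log2 fold change of −0.29 (s.e. 0.123, unadjusted *P*-value of 0.037, adjusted *P*-value of 0.583). When that pool was left out, the log2 fold change was −0.18 (unadjusted *P*-value of 0.183). As 66.8% of its exon bases are shared, this gene has the largest shared portion of the listed *Pcdhg* genes. *Pcdhga12* was measured at 9.54, 8.70 and 9.02 CPM in the control pools and 7.65, 8.51, 8.66 and 7.56 CPM in the *Gata6 STOP/+* pools. The *Gata6 STOP/+* pools were again all lower than the control pools, though *Gata6 STOP/+* replicate 4 and control replicate 4 almost touched. It had a log2 fold change of −0.16 (s.e. 0.103, unadjusted *P*-value of 0.152, adjusted *P*-value of 0.745). *Pcdhga9* was measured at 4.22, 5.003 and 5.54 CPM in the control pools and 6.38, 5.04, 6.18 and 6.63 CPM in the *Gata6 STOP/+* pools, with 3 of the 4 *Gata6 STOP/+* pools above every control pool and *Gata6 STOP/+* replicate 3 within the control range. Its log2 fold change was 0.28 (s.e. 0.139, unadjusted *P*-value of 0.0742, adjusted *P*-value of 0.663), and 0.18 with control replicate 3 left out.

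*Pcdhb4* was measured at 0.767, 0.794 and 1.06 CPM in the control pools and 1.58, 1.09, 1.10 and 1.13 CPM in the *Gata6 STOP/+* pools, which corresponds to 16 to 45 reads per pool. All *Gata6 STOP/+* pools were higher than the control pools, but control replicate 5 lay just below *Gata6 STOP/+* replicate 3, and *Gata6 STOP/+* replicate 1 stood alone at the top. Limma gave a log2 fold change of 0.32 (s.e. 0.201, unadjusted *P*-value of 0.136, adjusted *P*-value of 0.736). The other clustered members all overlapped between the groups and had unadjusted *P*-values above 0.05. Per kilobase of exon, the mean level of the remaining *Pcdhg* genes ran from *Pcdhgb8* at 0.670 CPM to *Pcdhgb6* at 4.16 CPM, with single pools ranging from 2.35 to 3.58 CPM and from 14.7 to 22.7 CPM before scaling to length. On the same scale the *Pcdhb* genes ran from *Pcdhb14* at 0.174 to *Pcdhb22* at 0.901 CPM per kilobase. The *Pcdhb* genes are thus among the lowest members, and *Pcdhb16* had as few as 12 reads in 1 pool.

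Genes that work with these cadherins were examined as lists, 87 of 100 genes in all being listed. None had an adjusted *P*-value under 0.05 by limma. At an unadjusted *P*-value under 0.05, 4 of the 87 were higher and 4 lower in *Gata6 STOP/+*, beside 4.17% and 3.88% of all genes. In 6 of them every *Gata6 STOP/+* pool was higher and in 2 every *Gata6 STOP/+* pool was lower, beside 4.31% and 4.16% of all genes. Among catenins and adherens junction partners, 15 of 16 were listed. *Ctnnb1*, which encodes β-catenin, the link of classical cadherins to α-catenin and also a Wnt signal transducer, was measured at 984, 1020.1 and 1075 CPM in the control pools and 1080, 953, 1008 and 1008 CPM in the *Gata6 STOP/+* pools. The groups overlapped, with a log2 fold change of −0.020 (s.e. 0.072, unadjusted *P*-value of 0.786, adjusted *P*-value of 0.963). *Ctnna1*, *Ctnnd1* and *Jup*, which encode α-catenin, p120-catenin and plakoglobin, had log2 fold changes of 0.010 (s.e. 0.06, adjusted *P*-value of 0.98), 0.057 (s.e. 0.055, adjusted *P*-value of 0.83) and −0.12 (s.e. 0.072, adjusted *P*-value of 0.715), and *Jup* had −0.0526 with control replicate 3 left out.

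*Ctnna2*, which encodes the α-catenin best known from neurons, was measured at 3.45, 5.28 and 3.98 CPM in the control pools and 2.91, 2.21, 2.28 and 2.91 CPM in the *Gata6 STOP/+* pools. All *Gata6 STOP/+* pools were lower than the control pools, and limma gave a log2 fold change of −0.61 (s.e. 0.175, unadjusted *P*-value of 0.00505, adjusted *P*-value of 0.367). *Nectin1*, which encodes an adhesion molecule of the immunoglobulin family at the same junctions, had a log2 fold change of 0.2 (s.e. 0.088, unadjusted *P*-value of 0.0461, adjusted *P*-value of 0.602) with overlapping groups, and of 0.12 with control replicate 4 left out (unadjusted *P*-value of 0.209). *Afdn*, whose product ties nectins to actin, was higher in every *Gata6 STOP/+* pool, with a log2 fold change of 0.072 (s.e. 0.052, unadjusted *P*-value of 0.195, adjusted *P*-value of 0.778). Of the desmosome genes, 6 of 14 were listed, 1 with a log2 fold change above 0 and 5 below, and none had an unadjusted *P*-value under 0.05.

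Among the 21 listed genes of the Hippo pathway and partners of Fat and Dachsous, *Mob1b*, which encodes a co-activator of the LATS kinases, was measured at 128, 125 and 132 CPM in the control pools and 147, 163, 156 and 158 CPM in the *Gata6 STOP/+* pools. Every *Gata6 STOP/+* pool was higher than every control pool. Limma gave a log2 fold change of 0.28 (s.e. 0.057, unadjusted *P*-value of 0.00047, adjusted *P*-value of 0.188). The adjusted *P*-value was 0.22 with edgeR's quasi-likelihood test, 0.016 with its likelihood ratio test and 0.00312 with DESeq2. *Wwc1* was also higher in every *Gata6 STOP/+* pool, with a log2 fold change of 0.14 (s.e. 0.07, unadjusted *P*-value of 0.0747, adjusted *P*-value of 0.663). *Amotl2*, which encodes an angiomotin, was lower in every *Gata6 STOP/+* pool, at 133, 135 and 130.5 CPM in the control pools and 125, 122, 114 and 126 CPM in the *Gata6 STOP/+* pools. Its log2 fold change was −0.13 (s.e. 0.057, unadjusted *P*-value of 0.0474, adjusted *P*-value of 0.611). *Ccn2*, a transcriptional target of the pathway, had a log2 fold change of −0.37 (s.e. 0.15, unadjusted *P*-value of 0.0332, adjusted *P*-value of 0.569) with overlapping groups, control replicate 4 being the highest pool, and without that pool it was −0.18.

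All 12 genes of a list of planar cell polarity, which leaves out the Celsr cadherins given above, were in the table. Of these *Fzd6*, which encodes a Frizzled receptor, was measured at 21.5, 21.8 and 23.3 CPM in the control pools and 30.3, 25.7, 26.3 and 27.2 CPM in the *Gata6 STOP/+* pools. Every *Gata6 STOP/+* pool was higher than every control pool, and limma gave a log2 fold change of 0.29 (s.e. 0.079, unadjusted *P*-value of 0.00366, adjusted *P*-value of 0.347). The other 11 overlapped between the groups and had unadjusted *P*-values above 0.05. Among 12 regulators of the clustered protocadherins, *Ctcf*, which encodes the DNA-binding protein that loops their promoters to enhancers, was higher in every *Gata6 STOP/+* pool. Its values were 103, 111 and 109.8 CPM in the control pools and 116, 114, 112 and 119 CPM in the *Gata6 STOP/+* pools, and limma gave a log2 fold change of 0.092 (s.e. 0.055, unadjusted *P*-value of 0.122, adjusted *P*-value of 0.724), with 0.0589 when control replicate 3 was left out.

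Cadherins are also cut at the cell surface, and all 7 listed cleavage enzymes were considered. *Adam10*, which encodes the protease that sheds the outer part of N-cadherin, was measured at 235, 259 and 248 CPM in the control pools and 306, 266, 284 and 298 CPM in the *Gata6 STOP/+* pools. Every *Gata6 STOP/+* pool was higher than every control pool, with a log2 fold change of 0.22 (s.e. 0.066, unadjusted *P*-value of 0.00639, adjusted *P*-value of 0.398). *Psen2*, which encodes a catalytic subunit of γ-secretase, was measured at 15.8, 13.7 and 16.8 CPM in the control pools and 12.9, 13.7, 11.9 and 12.4 CPM in the *Gata6 STOP/+* pools. Only *Gata6 STOP/+* replicate 3 reached the lowest control pool, and limma gave a log2 fold change of −0.26 (s.e. 0.098, unadjusted *P*-value of 0.022, adjusted *P*-value of 0.525). None of the 7 listed cadherin-related genes outside the name rule (of 11) and none of the 7 transcription factors known to repress cadherin genes had an unadjusted *P*-value under 0.05 or groups without overlap.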

How the data were processed

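The authors trimmed reads with Cutadapt, quantified genes with RSEM on GRCm38 with Ensembl genes, retained genes reaching 1 CPM in 3 or more samples and applied edgeR's trimmed mean of M-values. The deposited values are CPM of the adjusted library size, 1 column per pool. Dividing by what 1 read is worth gave whole reads for 100% of values (tolerance 0.05). Genes were tested with limma 3.58.1 (R 4.3.3, mean-variance trend) on log2(CPM + 0.5), two-sided, over all 14732 genes adjusted by the Benjamini-Hochberg procedure, at a threshold of 0.05. Fold changes on this scale understate those of low genes. EdgeR 4.0.16 and DESeq2 1.42.0 were run on the recovered reads. Positions and exon lengths came from GENCODE M21. The members and lists were chosen with earlier results of these data known. Named members were those with an unadjusted *P*-value under 0.05 or without overlap, the 12 highest per kilobase, and the 3 highest and 3 lowest log2 fold changes among members of at least 5 CPM, while others have ranges. Partner genes were named by the first of these criteria, at most 12, plus *Ctnnb1*, *Ctnna1*, *Ctnnd1*, *Jup*, *Cdh5* and *Gata6*. The study's methods describe 3 pools per genotype, whereas the sample labels give 3 and 4. Nothing says that pools came from separate litters, so *P*-values measure the spread between these pools. Alternatives were other pseudocounts, a filter on low values, another scaling, a replicate block, these other tests and leaving out each pool.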

Additional observations from a re-analysis of the deposited data

Results flagged for a closer look

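In 5 of the 63 members, 1 of the 4 *Gata6 STOP/+* pools lay far from the other 3, its gap to the nearest pool, as a ratio to the range of the group, being above Dixon's 95% critical value for 4 samples. These are 7.94% of the members, beside 4.86% of all genes, and chance alone would flag about 1 in 20. Of 114 items examined in this way, counting other named genes and summed lists, 6 were flagged. *Pcdh19* had a ratio of 0.964, with replicate 1 at 4.28 CPM and the other *Gata6 STOP/+* pools at 3.01 to 3.05 CPM. For *Pcdhb4* the ratio was 0.904, with replicate 1 at 1.58 CPM and the others at 1.09 to 1.13 CPM. *Cdh19* followed with 0.876, replicate 1 being at 5.65 CPM and the others at 3.42 to 3.69 CPM. In *Pcdhb14* the ratio was 0.855, from 1.89 CPM in replicate 1 and 1.41 to 1.48 CPM in the others. *Cdh20* was the only case outside replicate 1, with a ratio of 0.836, replicate 3 being at 3.30 CPM and the others at 2.12 to 2.32 CPM. The summed level of the partners of Fat and Dachsous and the Hippo genes had a ratio of 0.864. Replicate 1 was at 2652 CPM and the other *Gata6 STOP/+* pools were at 2842 to 2872 CPM. *Ankrd1*, the most abundant gene of that list, was at 517 CPM in replicate 1 and at 695 to 815 CPM in the others. The flag therefore need not describe the list as a whole, and the ratio without *Ankrd1* was not computed.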

How the results depend on the processing

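Over 17 alternatives, 0 members had an adjusted *P*-value under 0.05, the lowest being 0.232. The count of all genes called, 0 by limma, was 1 with a pseudocount of 0.1, 105 with edgeR's likelihood ratio test, 88 with DESeq2 and 0 to 13 when leaving out each pool in turn (13 when control replicate 4 was omitted, 2 for *Gata6 STOP/+* replicate 3 and 1 for *Gata6 STOP/+* replicate 1). Of 63 members, 34 had a log2 fold change above 0; with a mean of at least 5 CPM this was 19 of 37, as fewer genes were tested, and leaving out each pool gave 28 to 40. The number of members without overlap, 5, became 6 to 12 when a pool was left out, since fewer pools must be separated (19.0% of members on omitting *Gata6 STOP/+* replicate 3, beside 14.6% of all genes; 17.5% for *Gata6 STOP/+* replicate 1 or control replicate 3, beside 12.8% and 14.7%; 12.7% for *Gata6 STOP/+* replicate 4 or control replicates 4 or 5, beside 13.3%, 19.1% and 16.2%; 9.52% for *Gata6 STOP/+* replicate 5, beside 11.1%). The summed clustered genes were at 97.3% of the control mean in *Gata6 STOP/+* (94.7% to 100% when leaving out each pool).

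With the replicate number as a block, limma called 14 genes, edgeR's quasi-likelihood test 13 and its likelihood ratio test 118, with 0 members each. Same-numbered pools showed no common deviation (correlations of −0.046, −0.266 and −0.017 over 11627 genes, beside −0.147 to 0.223 for pools of unlike number). So few pairs cannot decide whether the numbers pair the pools. *Gata6 STOP/+* replicate 1 shares its number with no control pool. With the block, that pool therefore adds nothing to the log2 fold change between genotypes. In each of the 3 fits with the block, 28 of 63 members had a log2 fold change above 0, with medians of −0.021, −0.024 and −0.026. Limma without the block but with *Gata6 STOP/+* replicate 1 left out also gave 28 members above 0 and a median of −0.021. In these replicate block fits the log2 fold changes of *Fat4* (−0.0731, −0.0721 and −0.0724) and *Pcdh18* (−0.048, −0.049 and −0.0492) turned below 0. For *Fat4*, limma without the block gave the same −0.0731 when *Gata6 STOP/+* replicate 1 was left out, so this is not a separate effect of blocking. *Gata6* passed the threshold in 1 of them (adjusted *P*-value of 0.0164).

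With unadjusted *P*-values under 0.05, 1 member was higher and 5 were lower, and leaving out each pool gave 1 to 4 higher and 1 to 5 lower. DESeq2 gave 3 higher and 3 lower, and edgeR's likelihood ratio test 3 higher and 4 lower. Limma with the replicate block gave 2 higher and 4 lower. There *Pcdh12*, *Pcdhga4* and *Pcdhgc4* no longer had such a *P*-value, whereas *Cdh10*, *Cdh13* and *Pcdhgb2* did. *Cdh10*, *Cdh13* and *Pcdhgb2* also had one in limma without the block when *Gata6 STOP/+* replicate 1 was left out. Leaving out 1 pool turned the sign of 12 of 40 named genes, all with log2 fold changes close to 0: *Dchs1* (−0.15 to 0.0602), *Fat4* (−0.0731 to 0.15), *Pcdhgc3* (−0.034 to 0.11), *Pcdh7* (−0.0266 to 0.22), *Pcdh18* (−0.048 to 0.22), *Cdh2* (−0.0191 to 0.0382), *Cdh3* (−0.0899 to 0.00292), *Cdh11* (−0.15 to 0.0258), *Cdh24* (−0.00799 to 0.12), *Ctnnb1* (−0.0517 to 0.0137), *Ctnna1* (−0.0171 to 0.0293) and *Cdh5* (−0.0571 to 0.20). Without a turn of sign, that of *Fat1* (0.054 with all pools) ran from 0.00245 to 0.14. The cause was not tested. Members had as few as 12 reads in a pool, which limits the precision of their values.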
